A study of Mus musculus with 12 samples.

Results

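The clustered protocadherin genes were followed in the adult mouse cerebellum and hippocampus, with and without En2, the homeobox transcription factor that patterns the midbrain and hindbrain. Genes were taken as members when the gene name of their probe began with Pcdha, Pcdhb or Pcdhg in the probe annotation of the cerebellum array files, which was applied to all 12 arrays. This gave 33 genes of the 21149 named on the arrays: 5 Pcdha, 22 Pcdhb and 6 Pcdhg genes, measured by 45 of 41174 probes. All of them lie on chromosome 18 (mm9), where the probes of the Pcdha genes other than Pcdha4-g span positions 37114742 to 37347076, those of the Pcdhb genes 37426782 to 37680728, and those of the Pcdhg genes 37823710 to 38001435.

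Clustered protocadherins are cadherin-related adhesion proteins of the neuronal membrane that typically bind their own kind on a neighbouring cell. In the Pcdha and Pcdhg clusters every variable exon has its own promoter and is spliced to constant exons shared by the whole cluster, whereas each Pcdhb gene is a single coding exon with no shared part. From most of these promoters individual neurons choose a few, largely at random. The family is known for dendritic self-avoidance, as in Purkinje cells, and for axon targeting and neuronal survival.

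The groups were the entire cerebellum and the entire hippocampus of WT and En2-/- littermates from heterozygous matings, with 3 arrays in each of the 4 groups and 1 Cy3-labelled RNA on each of the 12 arrays. The mutants lack the homeobox of En2 in every cell, and the line came from a mixed 129Sv, C57BL/6 and outbred stock that had been bred into C57BL/6 for 5 or more generations, a background shared by both genotypes. Both sexes were used. The methods name 3 adult mice of each genotype for both tissues, but the labels tie no array to a mouse, so regions were compared without pairing by animal. Since RNA came from whole tissue, fewer cells of a type and less RNA per cell cannot be told apart.

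Of 43379 spots per array, 62.27 to 73.05% exceeded background clearly and 0 were saturated, and the number of arrays limits the precision. Each of the 3 slides held 1 array of every group, always in the same place, so the place on the slide and the group cannot be told apart. The En2 probe read 13.80 to 14.61 (log2) in WT and 14.08 to 14.81 in En2-/- cerebellum, while its hippocampus values were 7.43 to 7.99 in WT and 7.04 to 8.14 in En2-/- mice. This probe lies in the 3′ untranslated region, which the mutant allele keeps, so it checks nothing about the genotype. The tissue labels matched their markers: all 7 Purkinje and all 7 cerebellar granule cell markers were higher in the cerebellum in both genotypes, and 6 of 7 markers of hippocampal neurons were lower there, the exception being Calb2.

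What a probe could read differed between the clusters. Of the 45 probes, 7 were annotated to transcripts of several members. All 3 probes named Pcdhac2, a C-type isoform of the Pcdha cluster, also list Pcdha4, Pcdha9 and Pcdhac1, and 3 of the 4 probes named Pcdhga9 list other Pcdhg genes as well. These probes sit towards the shared 3′ end of their cluster and cannot separate single isoforms. Pcdha4-g, a read-through transcript name, has its probe inside the Pcdhg cluster. Among the Pcdhb genes only the Pcdhb18 probe was of this kind, listing Pcdhb17 and Pcdhb20 too. Pcdhac2 was the only C-type isoform with a probe of its own name.

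Most members were detected in both tissues. The probe with the highest mean stood for each gene, and 26 of the 33 members were well above background on all 12 arrays, 4 on some and 3 on none. The 3 undetected members were Pcdhb1, Pcdhgb4 and Pcdhga12. Pcdhb2 was above background on 1 WT cerebellum, 1 En2-/- cerebellum and 1 WT hippocampus array, and Pcdhga7 on 2 arrays of each of these groups, and neither on any En2-/- hippocampus array. Pcdhb11 fell short on 1 En2-/- hippocampus array. Pcdhga1 was above background on all 6 cerebellum arrays but on 1 WT and 0 En2-/- hippocampus arrays. Pcdhac2, Pcdhb18 and Pcdhga9 were counted through probes that list several members. The only Pcdhga9 probe that lists no other member was above background on 2 WT and 1 En2-/- cerebellum arrays. In the hippocampus it was so on 1 WT and 0 En2-/- arrays. A gene was tested where its probe was above background on every array of at least 1 of the groups compared, which left 28 members for the comparisons between regions, for the cerebellum and for the interaction, and 27 for the hippocampus.

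**Figure D1:**
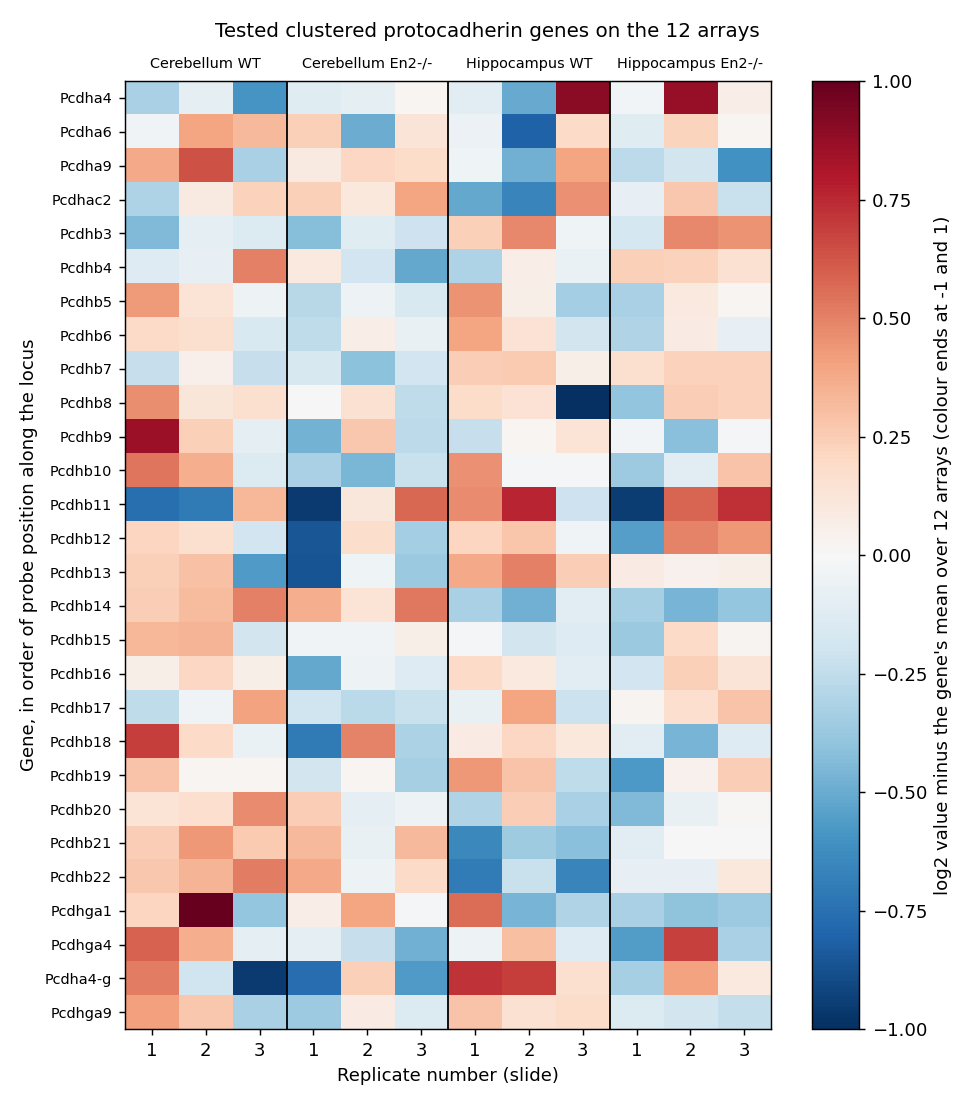
Values of the 28 tested members on the 12 arrays, with rows in order along the locus, columns by group and replicate number, and colour for the log2 value minus the gene's own mean over the 12 arrays. Pcdhb14 is above its mean on every cerebellum array and below it on every hippocampus array, and Pcdhb21 and Pcdhb22 are lowest on the 3 WT hippocampus arrays.

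The first comparison asked how the 2 regions differ in WT mice. Of the 28 members tested, 3 differed at an adjusted p under 0.05 in limma, against 27.9% of all 15671 genes tested. All 3 were Pcdhb genes and were higher in the cerebellum, the direction of 14.8% of all genes, while no member was lower, as 13.1% of all genes were.

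Pcdhb22, the last gene of its cluster, read 9.61, 9.68 and 9.85 (log2) in the WT cerebellum and 8.64, 9.12 and 8.68 in the WT hippocampus. The groups did not overlap, and the difference was 0.90 ± 0.21 (SE), or 1.87-fold (adjusted p = 0.0135, limma). Within the slides it was 0.98, 0.56 and 1.16.

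Its neighbour Pcdhb21 read 10.37, 10.56 and 10.39 in the WT cerebellum and 9.48, 9.77 and 9.71 in the WT hippocampus, again without overlap. This was a difference of 0.79 ± 0.19 (SE), or 1.73-fold (adjusted p = 0.0159, limma), and the slides gave 0.89, 0.78 and 0.69.

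Pcdhb14 lies nearer the middle of the cluster. Its values of 8.98, 9.05 and 9.24 in the WT cerebellum all exceeded the 8.41, 8.25 and 8.62 in the WT hippocampus. The difference was 0.66 ± 0.20 (SE), or 1.58-fold (adjusted p = 0.0382, limma), with 0.57, 0.80 and 0.62 within the slides.

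These calls leaned on single arrays. Without hippocampus WT replicate 1 none of the 3 passed, with adjusted p of 0.0559 for Pcdhb22, 0.0628 for Pcdhb21 and 0.103 for Pcdhb14. Without cerebellum WT replicate 2, Pcdhb21 (0.0777) and Pcdhb14 (0.108) no longer passed. Pcdhb14 was also lost without cerebellum WT replicate 1 (0.075) or 3 (0.0709) and without hippocampus WT replicate 2 (0.113), but in each of these fits its difference stayed between 0.57 and 0.72.

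The other Pcdhb genes spread around 0. Over the 20 tested, the median WT difference was 0.12, with 13 higher and 7 lower in the cerebellum, beside a median of 0.07 over all genes. At the start of the cluster, Pcdhb3 lay between 8.70 and 9.04 on the WT cerebellum arrays, all below the 9.38, 9.62 and 9.10 in the hippocampus, a difference of -0.45 ± 0.22 (adjusted p = 0.162, limma). Pcdhb7 was lower without overlap too, at -0.33 ± 0.20 (adjusted p = 0.25, limma). The lowest value was that of Pcdhb11, at -0.72 ± 0.36 (adjusted p = 0.173, limma), whose cerebellum values of 5.22, 5.27 and 6.31 overlapped the 6.45, 6.74 and 5.77 of the hippocampus.

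None of the 5 Pcdha genes passed the test in WT, and their median difference was 0.24. Pcdha4, the first of the cluster, read 6.12, 6.35 and 5.85 in the cerebellum against 6.33, 5.94 and 7.34 in the hippocampus (-0.43 ± 0.35). Pcdha6 read 7.98, 8.41 and 8.34 in the cerebellum against 7.96, 7.21 and 8.21 in the hippocampus (0.45 ± 0.29). Both overlapped between regions. For the shared 3′ signal named Pcdhac2 the hippocampus values were 12.92, 12.77 and 13.89, a range that held its cerebellum values of 13.12, 13.52 and 13.66. Pcdha4-g read 9.58, 8.87 and 8.11 in the cerebellum against 9.79, 9.76 and 9.23 in the hippocampus. It was lower in the cerebellum within all 3 slides, yet the groups overlapped and the difference of -0.74 ± 0.36 did not pass (adjusted p = 0.162, limma). Without cerebellum WT replicate 1 it was -1.11 with an adjusted p of 0.0389.

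The 3 Pcdhg genes tested in WT gave 0.36 ± 0.39 for Pcdhga1, 0.24 ± 0.24 for Pcdhga4 and -0.09 ± 0.24 for the shared 3′ signal named Pcdhga9, and all of them overlapped between regions. The dim Pcdhga1 read 4.83, 5.64 and 4.23 in the cerebellum against 5.17, 4.15 and 4.31 in the hippocampus, and Pcdhga9 15.90, 15.76 and 15.16 against 15.77, 15.64 and 15.67.

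In En2-/- mice the same comparison called 1 of the 28 members, against 26.9% of all 15488 genes tested. The call was again higher in the cerebellum, as were 12.9% of all genes, while 14% of all genes and no member were called lower. It was Pcdhb14, which read 9.10, 8.87 and 9.26 in the En2-/- cerebellum and 8.40, 8.27 and 8.35 in the hippocampus, without overlap. Its difference was 0.74 ± 0.16 (SE), or 1.67-fold (adjusted p = 0.0148, limma), and 0.70, 0.60 and 0.91 within the slides. The call was lost without cerebellum En2-/- replicate 3 (adjusted p = 0.0704) and without hippocampus En2-/- replicate 2 (0.0541) or 3 (0.0569), with differences of 0.65 to 0.74.

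Pcdhb21 and Pcdhb22 overlapped between the regions in En2-/- mice. Pcdhb21 read 10.45, 10.05 and 10.45 in the cerebellum against 10.01, 10.13 and 10.13 in the hippocampus, a difference of 0.23 ± 0.17 (adjusted p = 0.365, limma). For Pcdhb22 the values were 9.72, 9.29 and 9.53 against 9.26, 9.26 and 9.45, a difference of 0.19 ± 0.17 (adjusted p = 0.46, limma). In the authors' log2 table, whose quantiles differ between tissues, the median gene was 0.25 higher in the cerebellum of En2-/- mice. With those values both genes passed here as well, at 0.56 for Pcdhb21 (adjusted p = 0.0254, limma) and 0.52 for Pcdhb22 (0.0244). Whether these differences between regions differed from those in WT was tested by the interaction, given further on.

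Over the 20 tested Pcdhb genes the En2-/- median was -0.08, with 12 of 20 lower in the cerebellum, beside -0.02 for all genes. Lower there without overlap were Pcdhb7 (-0.46 ± 0.15), Pcdhb4 (-0.41 ± 0.19), Pcdhb13 (-0.49 ± 0.22) and Pcdhb17 (-0.39 ± 0.15). None of them passed, with adjusted p of 0.06 for Pcdhb7 and 0.0993 to 0.161 for the others in limma. Of the Pcdhb genes only Pcdhb14, given above, was higher without overlap. Among the Pcdha genes, Pcdha9 gave 0.51 ± 0.17 with no overlap (adjusted p = 0.0627, limma). Pcdha4 read 6.32, 6.35 and 6.46 in the cerebellum against 6.41, 7.31 and 6.51 in the hippocampus (-0.37 ± 0.25), and Pcdha4-g lay between 8.31 and 9.31 against 8.74, 9.47 and 9.17 (-0.42 ± 0.31), both with overlap. At the start of the Pcdhb cluster, Pcdhb3 read 8.71, 9.02 and 8.93 against 8.96, 9.62 and 9.59 (-0.50 ± 0.22, adjusted p = 0.136 in limma), and without hippocampus En2-/- replicate 1 it was -0.72 with an adjusted p of 0.0303. The Pcdhg gene Pcdhga1 was not well above background on any En2-/- hippocampus array. It read 4.68, 5.01 and 4.60 in the cerebellum against 4.29, 4.21 and 4.25 in the hippocampus. These had means of 4.76 and 4.25. The gene was tested only because the cerebellum arrays were above background, and it did not pass (adjusted p = 0.0575, limma). The mean detection limit of the hippocampus arrays was 4.69. The cerebellum mean was 1.05-fold above it, but the cerebellum values of 4.68 and 4.60 lay below it, so no least difference was set.

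**Figure D2:**
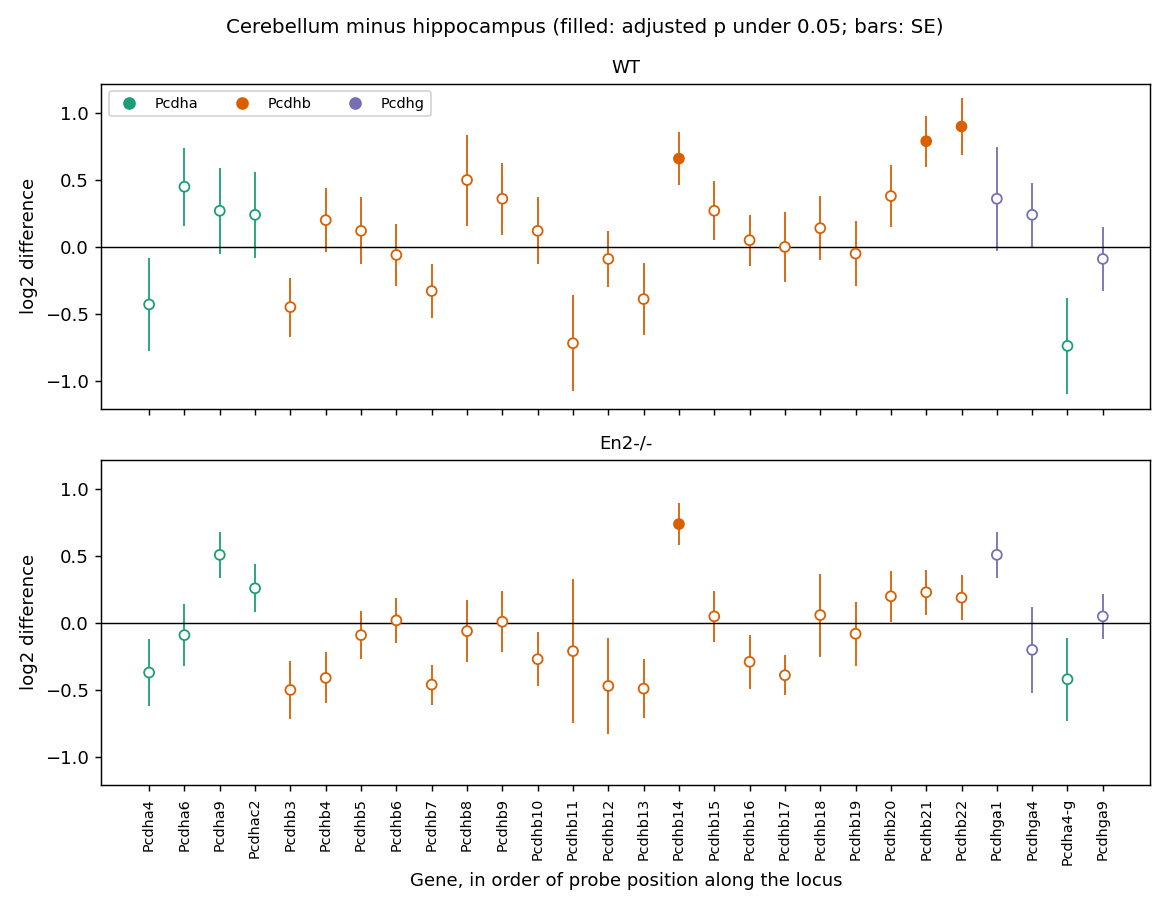
Cerebellum minus hippocampus in log2 units for the 28 tested members in order along the locus, in WT (top) and En2-/- mice (bottom), with the SE as bars and filled points for an adjusted p under 0.05 in limma. Pcdhb14, Pcdhb21 and Pcdhb22 are filled in WT, and Pcdhb14 in En2-/- mice.

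Along the Pcdhb cluster the differences between regions were described by position. Over the 20 tested genes, Spearman's rho between probe position and the difference was 0.43 in WT and 0.55 in En2-/- mice, and 0.00 and 0.07 for the genotype differences in the cerebellum and the hippocampus. A positive value means higher values in the cerebellum, or in En2-/- mice, towards the Pcdhg side, and all genes were measured on the same arrays. The last 3 genes, Pcdhb20, Pcdhb21 and Pcdhb22, were at 0.38, 0.79 and 0.90 in WT and at 0.20, 0.23 and 0.19 in En2-/- mice.

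Neighbouring Pcdhb genes did not all vary together from array to array. After the group means were taken out, the correlation over the 12 arrays had a median of 0.24 over the 19 adjacent pairs and of 0.17 over all 190 pairs. Adjacent pairs ranged from -0.63 for Pcdhb13 and Pcdhb14 to 0.95 for Pcdhb5 and Pcdhb6, and Pcdhb21 and Pcdhb22 stood at 0.67. Pairs that lie apart also reached high values, such as 0.92 for Pcdhb9 and Pcdhb18 and 0.91 for Pcdhb8 and Pcdhb19. All pairs share the same 12 arrays.

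The second question was what loss of En2 changed. In the cerebellum 0 of the 28 members passed the adjusted threshold in limma, against 0.66% of all 15603 genes, and the rank product at the study's own limit of P under 0.01 called 0 members as well. The rank product was run on the probe standing for each gene, with the normalization and filter used here. The study's own normalization and probe filter were not repeated. At an unadjusted p under 0.05 there were 2 of 28 members (7.14%), against 9.3% of all genes. These were Pcdhb10 and Pcdhga4, and the count fell to 0 after scaling to the 75th percentile and without cerebellum WT replicate 1 or 2 or cerebellum En2-/- replicate 3. It rose to 3 with local background subtracted and without cerebellum WT replicate 3.

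Nearly all Pcdhb genes nonetheless had a lower mean in the En2-/- than in the WT cerebellum. This was so for 19 of the 20 tested, with a median difference of -0.27, whereas 53.8% of all genes were lower and their median was -0.03. The exception was Pcdhb11, at 0.28 ± 0.44. Taken gene by gene, the median size of 0.28 in the cluster stood beside a median SE of 0.20. Across the other ways of processing, 18 or 19 of 20 Pcdhb genes were lower, or 20 of 22 where dim probes were kept, and with single arrays left out 17 to 20 of 20. Within the slides the pattern was weaker: 12, 14 and 13 of the 20 genes were lower on slides 1, 2 and 3, where 51.6, 55.2 and 51.5% of all genes were.

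The cluster was also summarised array by array. Relative to each gene's mean over the 12 arrays, the median Pcdhb gene was at 0.24, 0.16 and -0.01 in the WT cerebellum and at -0.22, -0.05 and -0.20 in the En2-/- cerebellum, 2 groups that did not overlap but came close. In the hippocampus the values were 0.19, 0.14 and -0.12 in WT and -0.24, 0.09 and 0.12 in En2-/- mice, which overlapped. Summed Purkinje cell markers moved the same way in the cerebellum, from 17.88 to 18.31 (log2) over the WT arrays and from 17.67 to 17.78 over the En2-/- arrays, although 0 of the 7 markers passed the test. The part of these Purkinje markers in the Pcdhb values was not tested. Granule cell markers overlapped, at 17.21 to 17.53 and 17.18 to 17.31. Summed choroid plexus markers moved the other way, from 14.28 to 14.48 over the WT arrays and from 14.63 to 14.96 over the En2-/- arrays, with 0 of 6 past the test, and their part was not tested either.

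**Figure D3:**
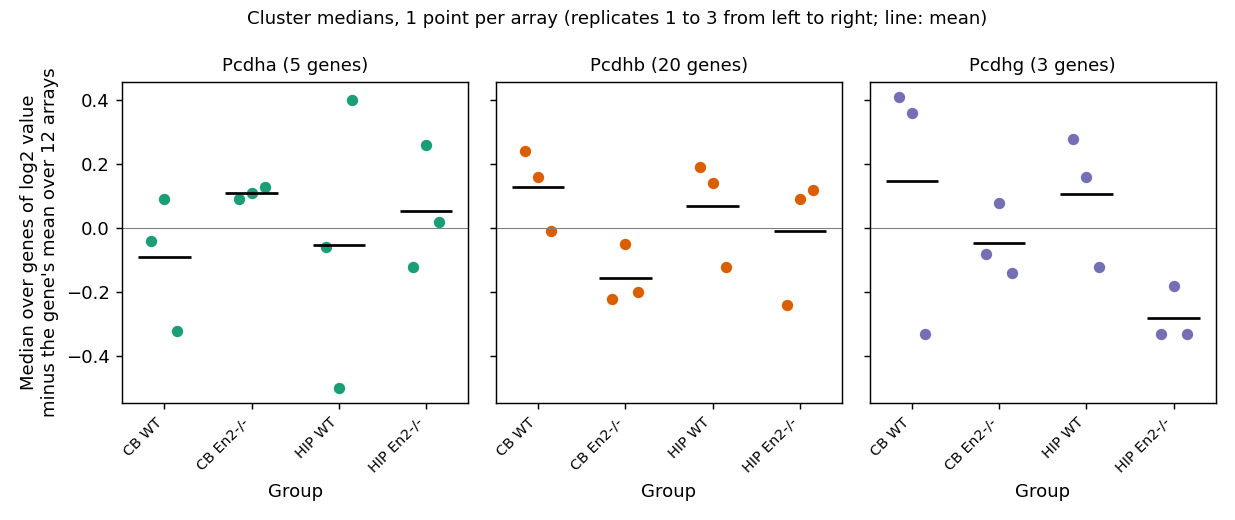
Median over the genes of each cluster of the log2 value minus the gene's mean over 12 arrays, with 1 point per array and the mean of the 3 arrays as a line, for cerebellum (CB) and hippocampus (HIP). The Pcdhb points of the En2-/- cerebellum, from -0.22 to -0.05, lie below those of the WT cerebellum, from -0.01 to 0.24, while the groups overlap in the hippocampus.

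The largest single difference was that of Pcdhb10. It read 8.25, 8.08 and 7.58 in the WT and 7.39, 7.26 and 7.49 in the En2-/- cerebellum. The groups just missed overlapping, and the difference of -0.59 ± 0.22 (SE), 0.664-fold, did not pass (adjusted p = 0.461, limma). The slides gave -0.86, -0.83 and -0.09. Of the other Pcdhb genes, Pcdhb5 (-0.33 ± 0.20) and Pcdhb16 (-0.34 ± 0.20) did not overlap between genotypes, with adjusted p of 0.697 and 0.682 in limma. The share of all genes without overlap was not counted, so the lack of overlap is a description only. A second probe of each showed no such difference, at 0.01 ± 0.28 for Pcdhb5 and 0.09 ± 0.26 for Pcdhb16. The second probes of the other Pcdhb genes with more than 1 tested probe gave -0.03 ± 0.22 for Pcdhb13, -0.29 ± 0.21 for Pcdhb15 and -0.45 ± 0.21 for Pcdhb17. Pcdhb14, the gene called between regions in both genotypes, was at -0.01 ± 0.19.

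In the Pcdhg cluster all 3 tested genes were lower in the En2-/- cerebellum. Pcdhga4 read 8.11, 7.88 and 7.43 in WT and 7.43, 7.29 and 7.04 in En2-/- mice, values that met at a single point. Its difference was -0.55 ± 0.23 (adjusted p = 0.518, limma) and it was lower within each slide, by -0.68, -0.59 and -0.39. Pcdhga1 gave -0.14 ± 0.34. The shared 3′ signal named Pcdhga9 read 15.12, 15.57 and 15.35 in En2-/- mice, against 15.90, 15.76 and 15.16 in WT (-0.26 ± 0.25).

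The Pcdha genes showed no common direction in the cerebellum, with 3 of 5 lower. The cluster's shared 3′ signal, Pcdhac2, read 13.67, 13.54 and 13.83 in En2-/- against 13.12, 13.52 and 13.66 in WT mice (0.25 ± 0.21). Pcdha6, with the largest difference of the cluster, read 7.98, 8.41 and 8.34 in WT and 8.26, 7.52 and 8.15 in En2-/- mice (-0.27 ± 0.25). Pcdha4 gave 0.26 ± 0.20 and Pcdha4-g was at -0.15 ± 0.40, with an adjusted p of at least 0.777 for all Pcdha genes in limma.

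In the hippocampus 0 of the 27 members tested passed in limma, against 1.34% of all 14975 genes, and the rank product at the study's limit of P under 0.005 again called 0. It too used the probe standing for each gene, so the upstream Pcdhga9 probe described below did not enter it. An unadjusted p under 0.05 was reached by 3 of 27 members (11.1%), against 19.5% of all genes. This count fell to 0 with the replicate number as a block, without hippocampus En2-/- replicate 3 and without hippocampus WT replicate 1. It was 1 without hippocampus En2-/- replicate 2. The count rose to 4 with local background subtracted or corrected by normexp, with the mean of all probes and without hippocampus WT replicate 3. Without the filter on dim probes it was 7 of 33. The Pcdhb median was -0.04 with 12 of 20 lower, while the median of all genes was 0.05. The count by slide was uneven, with 15, 11 and 4 of the 20 lower on slides 1, 2 and 3.

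The Pcdhb genes with an unadjusted p under 0.05 were Pcdhb21 and Pcdhb22, whose WT hippocampus arrays also entered the comparison between regions in WT. Pcdhb21 read 9.48, 9.77 and 9.71 in WT and 10.01, 10.13 and 10.13 in the En2-/- hippocampus. The groups did not overlap, but the difference of 0.44 ± 0.16 had an adjusted p of 0.202 in limma. The slides gave 0.53, 0.36 and 0.42. Pcdhb22 read 8.64, 9.12 and 8.68 in WT and 9.26, 9.26 and 9.45 in En2-/- mice, also without overlap, a difference of 0.51 ± 0.19 (adjusted p = 0.202, limma) and of 0.63, 0.14 and 0.76 within the slides. Pcdhb4 was higher without overlap as well (0.31 ± 0.17), while Pcdhb13 (-0.31 ± 0.16) and Pcdhb18 (-0.37 ± 0.17) were lower without overlap. Their adjusted p ranged from 0.284 to 0.339 in limma, and the share of all genes without overlap was not counted.

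The remaining member with an unadjusted p under 0.05 was the shared 3′ signal of the Pcdhg cluster. Pcdhga9 read 15.77, 15.64 and 15.67 in the WT and 15.35, 15.30 and 15.25 in the En2-/- hippocampus. These narrow groups did not overlap, and the difference of -0.39 ± 0.15 was of like size on all 3 slides, at -0.42, -0.34 and -0.43, but did not pass (adjusted p = 0.21, limma). After scaling to the 75th percentile it was -0.11 (adjusted p = 0.708, limma). Pcdhga4 read 7.47, 7.82 and 7.39 in WT and 6.96, 8.20 and 7.19 in En2-/- mice (-0.12 ± 0.32), and Pcdha4-g, whose probe lies in the same cluster, gave -0.47 ± 0.25 (adjusted p = 0.332, limma).

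Of the Pcdha genes in the hippocampus 3 of 5 were higher in En2-/- mice, with a median of 0.21. The shared 3′ signal named Pcdhac2 read 13.35, 13.70 and 13.21 in En2-/- against 12.92, 12.77 and 13.89 in WT mice. Its difference was 0.23 ± 0.31, with Pcdha4 at 0.21 ± 0.39 and Pcdha6 at 0.27 ± 0.27, and all 3 overlapped. In the same arrays the summed choroid plexus markers ranged from 14.60 to 15.91 (log2) in WT and from 12.17 to 16.62 in En2-/- mice, and the summed thalamus markers from 12.71 to 12.79 and from 13.17 to 13.92, with 1 of 6 thalamus markers called higher. Summed microglia markers ranged from 13.21 to 13.48 in WT and from 12.94 to 13.00 in En2-/- mice, with 0 of 5 called. Taken singly, Aif1 was higher in En2-/- mice (0.59 ± 0.18), while Csf1r, Cx3cr1, P2ry12 and Tmem119 were lower. Among the thalamus markers Calb2 was lower (-0.16 ± 0.46) and the others were higher. The thalamus and microglia sums did not overlap between genotypes, and the part of these cell types in the hippocampus values was not tested.

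**Figure D4:**
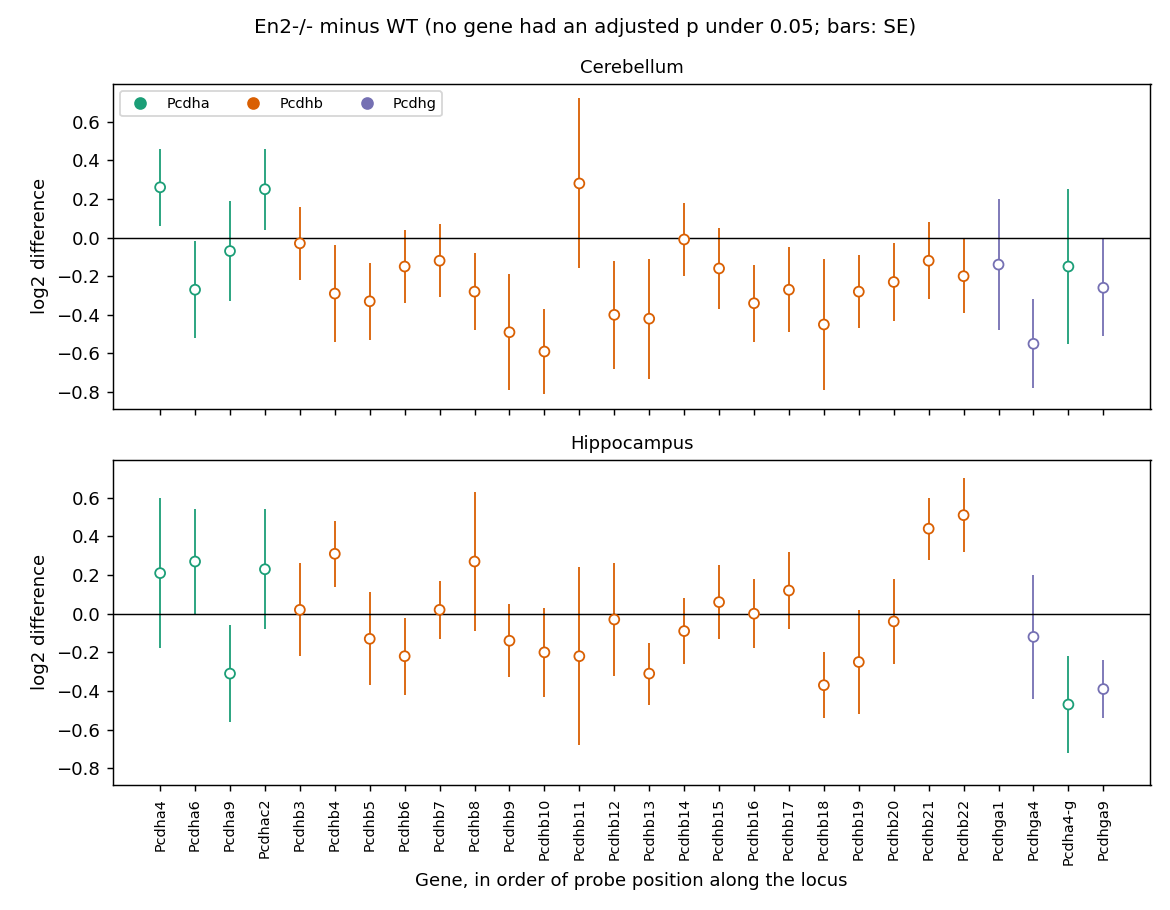
En2-/- minus WT in log2 units along the locus, in the cerebellum (top, 28 members) and the hippocampus (bottom, 27 members), with the SE as bars. No point passed the adjusted threshold in limma. In the cerebellum 19 of 20 Pcdhb genes lie below 0, and in the hippocampus Pcdhb21 and Pcdhb22 are the highest, at 0.44 and 0.51.

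The interaction tested whether the genotype difference was the same in both regions. It passed for 0 of 28 members in limma, against 0.145% of all 15819 genes, and at an unadjusted p under 0.05 for 2 (7.14%), against 11.8% of all genes. These were Pcdhb22, at -0.71 ± 0.26 (adjusted p = 0.341), and Pcdhb21, at -0.56 ± 0.23 (adjusted p = 0.393), where a negative value means a lower En2-/- to WT ratio in the cerebellum than in the hippocampus. For these genes a change with genotype in the difference between regions was therefore not shown. The Pcdhb median was -0.22 with 17 of 20 below 0, beside -0.09 over all genes, and scaling to the 75th percentile brought the 2 medians to -0.20 and -0.21.

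Several genes gave different answers by probe. When each probe was tested for itself, 5 of 37 member probes were called between regions in WT (24.2% of all 25085 probes), 3 of 37 in En2-/- mice (24.5% of 24806), and 1 of 36 between genotypes in the hippocampus (2.13% of 23774). Pcdhb14 was then at the edge, with the call kept in En2-/- mice and lost in WT.

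For Pcdhb13 the probe standing for the gene read 7.17, 7.23 and 6.37 in the WT cerebellum and 7.31, 7.44 and 7.18 in the hippocampus, a difference of -0.39 ± 0.27. Its other probe read 5.73, 6.01 and 6.21 against 7.35, 7.48 and 6.85, far apart, and gave -1.24 ± 0.25 (adjusted p over all probes = 0.00761, limma). The same probe gave -1.19 ± 0.29 in En2-/- mice (adjusted p = 0.0245, limma), where the first gave -0.49 ± 0.23.

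The 2 Pcdhb5 probes also differed in WT. The brighter gave 0.12 ± 0.26 between regions in WT, and the dimmer, at 4.88, 5.41 and 5.05 in the cerebellum against 6.16, 5.99 and 5.75 in the hippocampus, gave -0.86 ± 0.23 (adjusted p = 0.0285, limma). In En2-/- mice they lay close together, at -0.09 ± 0.18 and -0.17 ± 0.24. In the hippocampus the dimmer probe fell short of a call between genotypes, at -0.67 ± 0.18 (adjusted p = 0.0973, limma).

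The 3 probes named Pcdhac2 all read the shared part of the Pcdha cluster. In En2-/- mice the 2 upstream ones gave 0.30 ± 0.21 and 0.26 ± 0.19 between regions, and the one closest to the 3′ end -0.90 ± 0.25 (adjusted p = 0.0344, limma). This last probe read 11.42, 12.20 and 11.62 in the En2-/- cerebellum and 12.43, 12.63 and 12.88 in the hippocampus. In WT it gave -0.75 ± 0.25 (adjusted p = 0.0583, limma).

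In the Pcdhg cluster 3 of the 4 probes named Pcdhga9 were tested, and all 3 were lower in the En2-/- hippocampus. The most upstream of them, annotated to Pcdhga5, Pcdhga6 and Pcdhga9, read 9.48, 9.23 and 9.43 in WT and 8.32, 8.51 and 8.44 in En2-/- mice. It gave -0.95 ± 0.17 (adjusted p over all probes = 0.0361, limma), the single called value of a member between genotypes, and it was also the Pcdhga9 probe called between regions in WT, at -0.99 ± 0.31 (adjusted p = 0.0483, limma). Both calls used the same WT hippocampus arrays. Their mean was 9.38, beside 8.43 in the En2-/- hippocampus and 8.39 and 8.55 in the WT and En2-/- cerebellum. Fits without single arrays were not run by probe. The 2 probes at the 3′ end, which overlap each other, gave -0.40 ± 0.16 and -0.39 ± 0.16. The interaction of the upstream probe was 1.11 ± 0.51 (adjusted p = 0.443, limma).

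**Figure D5:**
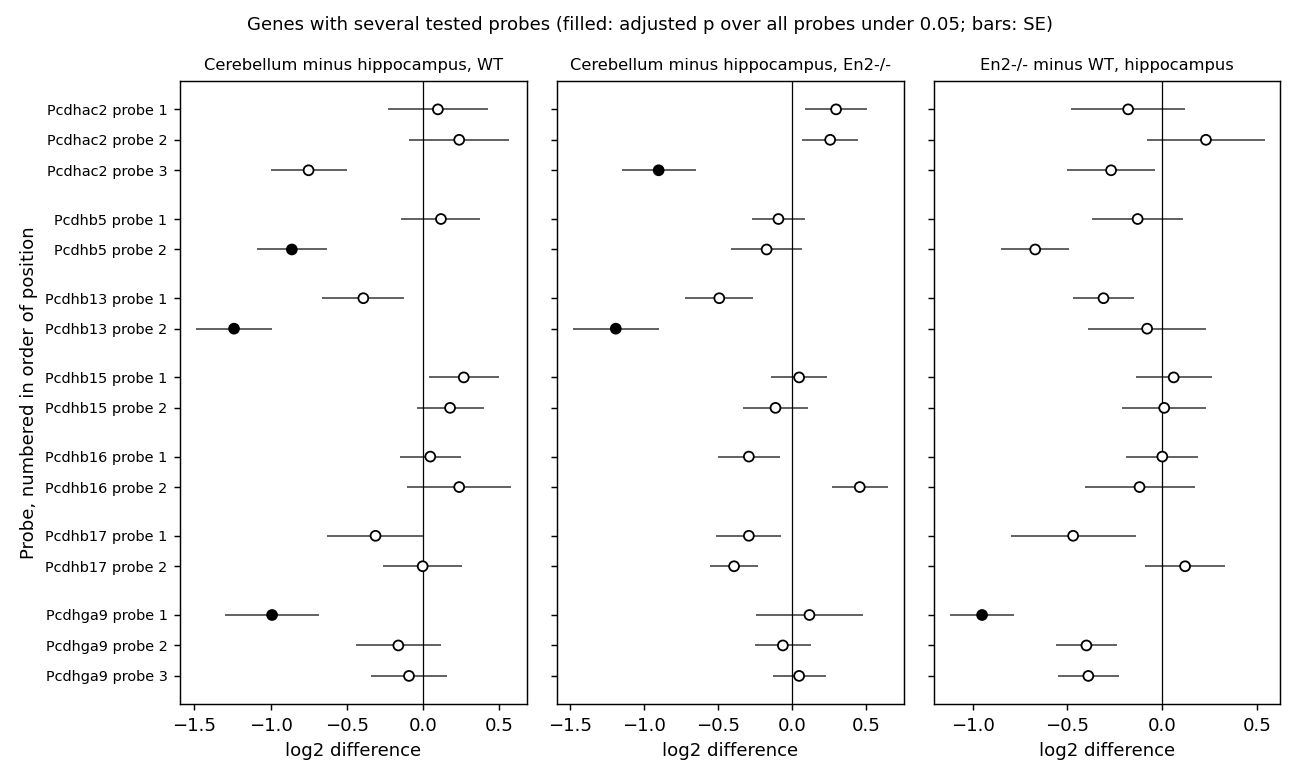
log2 differences of every tested probe for the members with several tested probes, between regions in WT and in En2-/- mice and between genotypes in the hippocampus, with the SE as bars and filled points for an adjusted p over all probes under 0.05. Between regions in WT, probes of Pcdhac2, Pcdhb5, Pcdhb13 and Pcdhga9 lie apart. In En2-/- mice those of Pcdhac2, Pcdhb13 and Pcdhb16 do, the last at -0.29 and 0.46, while those of Pcdhb5 and Pcdhga9 lie close together, as both overlapping Pcdhb15 probes do in each panel.

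Other genes of the pathway were counted from fixed lists. Beside them, 14.8% of all genes were called higher and 13.1% lower in the WT cerebellum, and 12.9% and 14% in En2-/- mice. Of 13 non-clustered protocadherins, related genes outside the 3 clusters, 1 was higher and 4 were lower in the WT cerebellum. Those lower were Pcdh20 (-3.46 ± 0.25), Pcdh8 (-3.12 ± 0.23), Cdhr1 (-2.88 ± 0.27) and Pcdh19 (-2.20 ± 0.23), and Pcdh12 was higher (1.27 ± 0.28). The same 4 were lower in En2-/- mice, where Pcdh18 (1.04 ± 0.18) and Pcdh7 (0.68 ± 0.19) were higher.

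Of 13 intracellular partners, kinases and actin regulators that act below the protocadherin tail, 6 were lower in the WT cerebellum and 0 higher, against 13.1% and 14.8% of all genes. The partners called lower included the kinases Ptk2b (-6.65 ± 0.32) and Ptk2 (-0.83 ± 0.20) and the WAVE complex subunits Wasf1 (-2.56 ± 0.29), Nckap1 (-1.85 ± 0.27), Abi2 (-1.32 ± 0.21) and Cyfip1 (-1.04 ± 0.21). In En2-/- mice 6 of 13 were lower, against 14% of all genes, with Abi1 (-0.76 ± 0.20) called in place of Cyfip1 (-0.33 ± 0.19). Among 12 genes of promoter choice and chromatin loops, the cohesin subunits Smc1a (0.96 ± 0.26) and Stag1 (0.72 ± 0.19) were higher and the cohesin regulator Pds5b (-0.96 ± 0.21) lower in the WT cerebellum, and only Pds5b passed in En2-/- mice, at -0.60 ± 0.16.

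Of 14 genes of DNA methylation and silencing, 0 passed in WT, against 27.9% of all genes. In En2-/- mice 3 of the 14 were higher in the cerebellum than in the hippocampus, against 12.9% of all genes. They were the methyltransferases Dnmt3a (1.55 ± 0.36) and Dnmt3b (0.73 ± 0.15) and the demethylase Tet1 (0.57 ± 0.16). Of 6 genes of proteolytic shedding, Psen2, a catalytic subunit of gamma-secretase, was higher in the WT cerebellum (0.83 ± 0.25) and 0 passed in En2-/- mice. Between genotypes, and in the interaction, 0 genes of these 5 lists passed in limma in either tissue. Of all genes 0.66% passed in the cerebellum, 1.34% in the hippocampus and 0.145% in the interaction. The median of the non-clustered protocadherins in the cerebellum was 0.39 and that of the Pcdhb genes -0.27.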

How the data were processed

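RNA of 12 samples was measured on Agilent one-colour arrays. The authors deposited spot intensity values from the scanner software, already corrected for background within each array, and a table of log2 values for 27534 probes that they had filtered and quantile normalized. The quantiles of that table differ between tissues, as separate normalization in each tissue would give, but the study's methods do not state this. The table served as an alternative. Here control and outlier spots were left out, and log2 intensities were quantile normalized over the 12 arrays. Of the 41174 probes 34891 had a gene name, and the 6283 others were not used at the gene level. Names came from the cerebellum files and were updated through a reference table (GRCm38.p6, names only): 1693 by accession and 317 by an older symbol, with 1202 kept. A gene needed values on at least 2 arrays of each group compared.

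Differences were fitted with limma 3.58.1 in R 4.3.3 on the 6 arrays compared, or on all 12 for the interaction, with Benjamini-Hochberg adjustment over all genes tested. No single value of 3 arrays against 3 can give an exact permutation p below 0.1, and groups without overlap reach just that value. Overlap between groups was looked at for members only, and its share over all genes was not counted. The p-values measure the spread between these samples. The procedure was tested on simulated data. Named genes were C-type isoforms, the first and last tested gene of each cluster, up to 3 WT region calls in each direction per cluster with a single sign in all pairs, the largest genotype difference of each cluster and tissue, any genotype or interaction call, and Pcdhga9, taken because it is in the study's own gene lists. Where a paragraph turns on another member it was chosen after its values were seen. Members and lists were chosen with earlier results of these data known. Other background corrections (normexp, or subtraction with a floor, each with 50), scalings, filters, probe rules, the rank product (100 permutations), the replicate block, and fits without each array in turn were tried. Figures were drawn with matplotlib 3.10.9. No sequence is shown.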

Additional observations from a re-analysis of the deposited data

How the results depend on the processing

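No member was called between genotypes, nor in the interaction, under any alternative at the gene level, by limma or the rank product. Only with every probe tested for itself was 1 member called in the hippocampus. The counts between regions moved more. In WT 3 members were called, 5 with the authors' log2 values, and 0 to 3 with single arrays left out. With every probe tested for itself 5 member probes were called in WT, none of them of Pcdhb14. Those of Pcdhb21 and Pcdhb22 were higher in the cerebellum, and a probe each of Pcdhb5 (-0.86), Pcdhb13 (-1.24) and Pcdhga9 (-0.99) was lower. In En2-/- mice 1 member was called, against 4 with local background subtracted, 3 with normexp and 5 with the authors' values. The count was 2 with the 75th percentile, the mean of all probes or no filter, and 0 to 2 with single arrays left out. Pcdhga1, added with the 75th percentile, was not above background in the En2-/- hippocampus. With every probe 3 member probes were called, that of Pcdhb14 higher and a probe each of Pcdhac2 (-0.90) and Pcdhb13 (-1.19) lower in the cerebellum. The authors' values have quantiles that differ between tissues. With them the median of all genes between regions was 0.32 in WT and 0.25 in En2-/- mice, with 77.6% and 76.9% of all calls higher in the cerebellum, beside 53.2% and 47.8%. Their Pcdha and Pcdhb medians were 0.55 and 0.43 in WT and 0.41 and 0.26 in En2-/- mice. The WT Pcdha median of 0.24 became -0.13 with the mean of all probes and -0.08 without the shared 3′ probes, and the WT Pcdhg median became -0.09 without a filter. The En2-/- Pcdhg median of 0.05 became 0.36 with the mean of all probes, and the Pcdha median in the hippocampus became -0.08 with it. The interaction median of the Pcdhg genes, 0.14, became -0.12 with background subtracted, -0.28 with the 75th percentile, -0.14 without shared probes and -0.15 with every array above background. The medians of the Pcdha and Pcdhg clusters, over 5 and 3 genes, therefore have no settled sign. The cause was not tested.

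With single arrays left out, the medians ran as follows. Between regions in WT they were 0.03 to 0.49 (Pcdha), 0 to 0.15 (Pcdhb) and -0.01 to 0.28 (Pcdhg), and in En2-/- mice -0.22 to 0.14, -0.29 to 0.03 and -0.07 to 0.36. Between genotypes they were -0.22 to 0.13, -0.29 to -0.19 and -0.49 to -0.12 in the cerebellum, and -0.09 to 0.47, -0.11 to 0.11 and -0.44 to -0.15 in the hippocampus. The interaction gave -0.33 to 0.33, -0.34 to -0.12 and -0.16 to 0.22.

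With the replicate block 3 members were called between regions in WT, 1 in En2-/- mice and 0 in the other comparisons, as without it, and the unadjusted count in the hippocampus fell from 3 to 0. The numbers mark slides, and same-numbered arrays deviated together only weakly (r from -0.19 to 0.42 over 18 pairs, 7 of them over 0.1). Of 959 recomputed values of single named genes, 924 counted as the same. A called gene counted so if it kept its call and sign, and an uncalled one if it moved by less than the spread. Of the rest, 17 uncalled values moved further, 11 lost a call, 7 gained one and 0 changed sign while called. All genes called between genotypes numbered 103 in the cerebellum, 43 without a filter, 52 with background subtracted and 60 with normexp. In the hippocampus 201 were called, 69 with the block, 68 without a filter and 38 without hippocampus WT replicate 1. The interaction called 23 genes, 12 with the authors' values and 5 without cerebellum WT replicate 1. Dim probes limit Pcdhb1, Pcdhb2, Pcdhga7, Pcdhgb4 and Pcdhga12, for which no difference was detectable.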

Other observations

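A probe for the transcript AK047552 lies within the Pcdhg cluster (37852177 to 37852236, mm9) but carries no Pcdhg name in the annotation used here, so it is no member. It was above background on all 3 WT and all 3 En2-/- cerebellum arrays, with means of 5.09 and 5.06 (log2), and on 1 of 3 hippocampus arrays in each genotype, with means of 3.73 and 4.82.

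Genes that flank the clusters within 500 kb were set beside them. Of 29 tested in WT, 5 were higher and 2 lower in the cerebellum, against 14.8% and 13.1% of all genes. Among them were the growth factor gene Hbegf (1.63 ± 0.28) and the formin Diaph1 (-1.14 ± 0.22). In En2-/- mice 4 were higher and 3 lower, against 12.9% and 14% of all genes. Between genotypes 0 of 29 in the cerebellum and 0 of 27 in the hippocampus passed in limma, against 0.66% and 1.34% of all genes.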
